A study of Mus musculus with 24 samples.

Results

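The 10 genes described here encode surface proteins through which a B cell deals with T cells, together with markers of B-cell activation. They are the B7 costimulators Cd80 and Cd86, the receptor Cd40, the ICOS ligand Icosl, the adhesion molecule Icam1, the checkpoint receptor Pdcd1 (PD-1) with its ligands Cd274 (PD-L1) and Pdcd1lg2 (PD-L2), and the activation markers Cd83 and Cd69. They were chosen by name, with earlier results of these data known, as 10 of the 23420 genes in the deposited files. All 10 were among the 11885 genes tested (a deposited log2 value of at least 0 in at least 3 of 24 libraries). Pdcd1 passed that filter through the in vivo activated and in vitro activated libraries, where it is high, so its place among the tested genes already depends on those groups.

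RNA was measured in 24 libraries of Balb/c mouse spleen B cells, which form 8 groups of 3. B cells of the germinal center (GC) make up 3 groups (early, peak and late), and in vivo activated and naive B cells 1 group each. The last 3 groups are in vitro activated B cells at 4 h, 12 h and 24 h. Neither the stimulus or immunogen nor the day, age, sex, animal or culture is named in the labels. The libraries may therefore not come from separate animals or cultures, and p-values rest on library-to-library spread, which may be technical. Cells were purified on beads and then sorted by antibody staining, per the labels' protocols, and the markers used for sorting are not given in the sources used here. Levels are given as the deposited log2 values, which are close to the log2 of CPM (read counts scaled to the same library total) and on which a difference of 1 is a 2-fold change, and the read depth per library is unknown.

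The libraries carried B-cell RNA: the group means of Cd79a, a signalling chain of the B-cell receptor, lay between 9.20 and 11.37 log2. Linear sums over 8 B-cell markers, Cd79a among them, were 5707 to 7009 in GC and 5613 to 6187 in in vivo activated cells. In in vitro activated cells they were 3349 to 4160, against 8480 to 8869 in naive cells. At 24 h, 8 of 8 were lower than in naive cells (42.5% of all genes), with a median of -1.58 log2. S1pr2, which encodes a receptor confining cells to the GC, had group means of 8.56 to 8.73 log2 in the GC groups and 1.31 in in vivo activated cells, against 3.18 in naive cells. Replicates correlated across genes at 0.984 to 0.994. Macrophage and monocyte markers (13 genes, given as the sum of their linear values) were highest in the GC libraries, at 194 to 323 in early, 124 to 281 in peak and 507 to 2160 in late GC cells, with 37.7 to 50.0 in in vivo activated and 15.8 to 26.5 in in vitro activated cells, against 64.1 to 67.5 in naive cells. The first late GC library, at 2160, stood apart from the other late GC libraries at 720 and 507. Marker sums of other cells also moved with the groups. Neutrophil sums were 79.2 to 1020 in late GC, 21.4 to 121 in other GC and 2.52 to 3.07 in in vivo activated cells, against 17.1 to 25.1 in naive cells, and erythroid sums were 753 to 1416, 176 to 765 and 14.2 to 20.5, against 90.7 to 101 in naive cells. NK-cell and platelet sums were lower in every in vivo activated library (at most 5.35 and 13.95) than in any GC library (at least 26.5 and 173) or naive library (at least 50.1 and 192). Dendritic-cell sums were 61.4 to 75.6 in GC and 29.3 to 30.5 in in vivo activated cells, against 39.4 to 41.3 in naive cells. Stroma sums were 38.1 to 58.9 and 111 to 144, against 256 to 297 in naive cells. Plasma-cell sums were 1272 to 2178 and 1158 to 1326, against 1527 to 1753. In in vitro activated cells the dendritic-cell, stroma and plasma-cell sums were 13.9 to 60.1, 30.1 to 56.1 and 574 to 2095. Neutrophil and erythroid sums in vitro were 3.93 to 12.2 and 1.27 to 9.41, below those of every naive library. NK-cell and platelet sums in vitro, at 3.68 to 23.9 and 8.26 to 143, were also below those of every naive library. At 24 h they were 3.68 to 6.68 and 8.26 to 9.35. Only 2 of 6 platelet and 2 of 7 stroma markers passed the filter for tested genes, so those sums rest on few genes. The marker sums are no measure of the content of other cells. The part of other cells in the members' differences was not tested. The Y-linked gene Ddx3y was at the floor of the scale (under -5 log2) in every GC and in vivo activated library and had group means of 4.77 to 5.75 log2 in naive and in vitro activated cells. What goes with that difference in Y-linked RNA cannot be told apart from the cell state in any comparison of GC or in vivo activated cells with naive or in vitro activated cells. The comparisons of GC with in vivo activated cells, among GC stages, and of in vitro activated with naive cells do not cross that split.

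As background, a T cell that meets its antigen on a B cell needs further signals from the pairs named above. CD80 and CD86 bind CD28, which helps activate the T cell, and CTLA-4, which restrains it; CD40 receives the CD40 ligand signal that drives B-cell proliferation and GC formation; and ICOSL binds ICOS on follicular helper T cells. PD-L1 and PD-L2 engage PD-1, an inhibitory receptor best known from T cells and also made by activated B cells, and ICAM-1 binds the integrin LFA-1 and holds the cell pair together. CD83 protects MHC class II and CD86 from removal from the surface, and CD69 keeps recently activated lymphocytes in the tissue by taking S1PR1 off the surface.

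The genes lie on 8 chromosomes (mm10, GENCODE vM21): Cd40 at chr2:165055627-165072948, Icosl at chr10:78069302-78083913, Icam1 at chr9:21015985-21028817, Cd83 at chr13:43784775-43803132, Cd69 at chr6:129267325-129275436 and Pdcd1 at chr1:94038305-94052553. Cd274 (chr19:29367455-29388095) and Pdcd1lg2 (chr19:29410919-29471161) are neighbours on the plus strand of chromosome 19, with 22823 bases between them. Cd86 (chr16:36603869-36666081, minus strand) and Cd80 (chr16:38455561-38496335, plus strand) share chromosome 16 at a distance of 1789479 bases. The 250 bases before the start of transcription in RefSeq (GRCm38.p6) are shown for 5 members, on the strand of the gene and 5′ to 3′. They are the neighbouring PD-1 ligands, the receptor they bind, which covered the widest range of levels, Icam1, which was higher than in naive cells in all 7 other groups, and Cd80, the member that differed most between GC stages. No such stretch was available for Cd40, Cd86, Cd83 and Cd69, so none of these was searched for motifs.
Cd274 (chr19:29367188-29367437): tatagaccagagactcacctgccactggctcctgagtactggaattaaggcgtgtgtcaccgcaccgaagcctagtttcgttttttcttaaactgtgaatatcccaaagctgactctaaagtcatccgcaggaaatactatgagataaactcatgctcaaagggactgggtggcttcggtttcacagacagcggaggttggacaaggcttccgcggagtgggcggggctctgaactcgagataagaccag
Pdcd1lg2 (chr19:29410669-29410918): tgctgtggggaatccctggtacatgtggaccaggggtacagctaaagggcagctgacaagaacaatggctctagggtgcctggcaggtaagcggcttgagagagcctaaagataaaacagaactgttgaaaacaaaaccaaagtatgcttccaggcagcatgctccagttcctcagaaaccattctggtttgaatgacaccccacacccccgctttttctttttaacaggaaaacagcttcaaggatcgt
Pdcd1 (chr1:94052554-94052803): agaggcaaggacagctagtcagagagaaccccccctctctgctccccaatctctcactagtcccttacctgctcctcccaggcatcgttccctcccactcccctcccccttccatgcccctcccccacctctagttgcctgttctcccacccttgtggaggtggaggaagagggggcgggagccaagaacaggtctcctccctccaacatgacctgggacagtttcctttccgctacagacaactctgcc
Icam1 (chr9:21015690-21015939): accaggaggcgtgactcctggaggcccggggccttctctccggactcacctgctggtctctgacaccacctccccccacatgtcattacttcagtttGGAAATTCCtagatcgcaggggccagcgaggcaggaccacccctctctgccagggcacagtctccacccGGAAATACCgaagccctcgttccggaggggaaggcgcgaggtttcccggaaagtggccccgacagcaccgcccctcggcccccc
Cd80 (chr16:38458683-38458932): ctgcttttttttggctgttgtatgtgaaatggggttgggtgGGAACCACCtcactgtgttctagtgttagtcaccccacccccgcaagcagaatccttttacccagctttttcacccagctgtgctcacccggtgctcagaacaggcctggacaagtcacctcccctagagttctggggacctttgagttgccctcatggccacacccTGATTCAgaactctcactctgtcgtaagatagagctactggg
Capitals mark matches to 3 motifs searched on both strands: a shortened NF-kB-like motif GGNNNTTCC (other strand GGAANNNCC), the AP-1 motif TGANTCA, and an interferon-response-like motif (GAAA, any 2 bases, GAAA), with no overlap between the matches found. The NF-kB-like motif was shortened after the sequences had been seen. Icam1 holds the NF-kB-like motif at 2 places, GGAAATTCC from -153 to -145 and GGAAATACC from -84 to -76, counted from the start. Cd80 holds it once, as GGAACCACC from -209 to -201, and the AP-1 motif once, as TGATTCA from -42 to -36. The Cd80 stretch lies inside the GENCODE bounds of the gene given above. Its motif positions are thus counted from a RefSeq start that differs from the GENCODE start. The stretches of Cd274, Pdcd1lg2, Pdcd1 and Icosl hold none of these letters, which says nothing about which factors bind there. Of 32851 RefSeq promoter stretches searched in the same way, 15.7% hold the NF-kB-like motif, 6.75% the AP-1 motif and 2.98% the interferon-response-like motif. Among the 11305 stretches that belong to genes tested here the shares were 18.5%, 4.25% and 2.65%.

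The median member covered a wider range of levels than the median gene. From the lowest to the highest group mean, the median span of the 10 members was 3.17 log2, against 1.66 log2 over all genes tested. Pdcd1 had a span of 9.62 log2, Cd274 4.63, Icosl 4.18, Cd69 4.04, Cd86 3.97, Cd80 2.36, Pdcd1lg2 2.27, Icam1 2.16, Cd83 1.61 and Cd40 1.13 log2. The spans of Cd83 and Cd40 lay below the median over all genes, and that of Pdcd1 rests on a lowest mean of -2.88 log2. Cd40, Icosl, Cd274, Pdcd1lg2 and Cd69 had their highest group mean in naive cells, and Cd86, Icosl, Cd274, Pdcd1lg2 and Cd69 had their lowest at 24 h in vitro. Per kilobase of exon, Cd83 had the highest level of the members in every group, with a level of 8.46 log2 in peak GC cells, 8.09 at 24 h in vitro and 9.28 in naive cells. In peak GC cells it was followed per kilobase by Cd86 at a level of 5.50 and Cd40 at 4.76 log2. At 24 h in vitro Pdcd1 at a level of 5.79 and Icam1 at 5.31 log2 came next per kilobase, and in naive cells Cd69 at 6.51, Cd274 at 6.06 and Icosl at 5.90 log2.

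**Figure D1:**
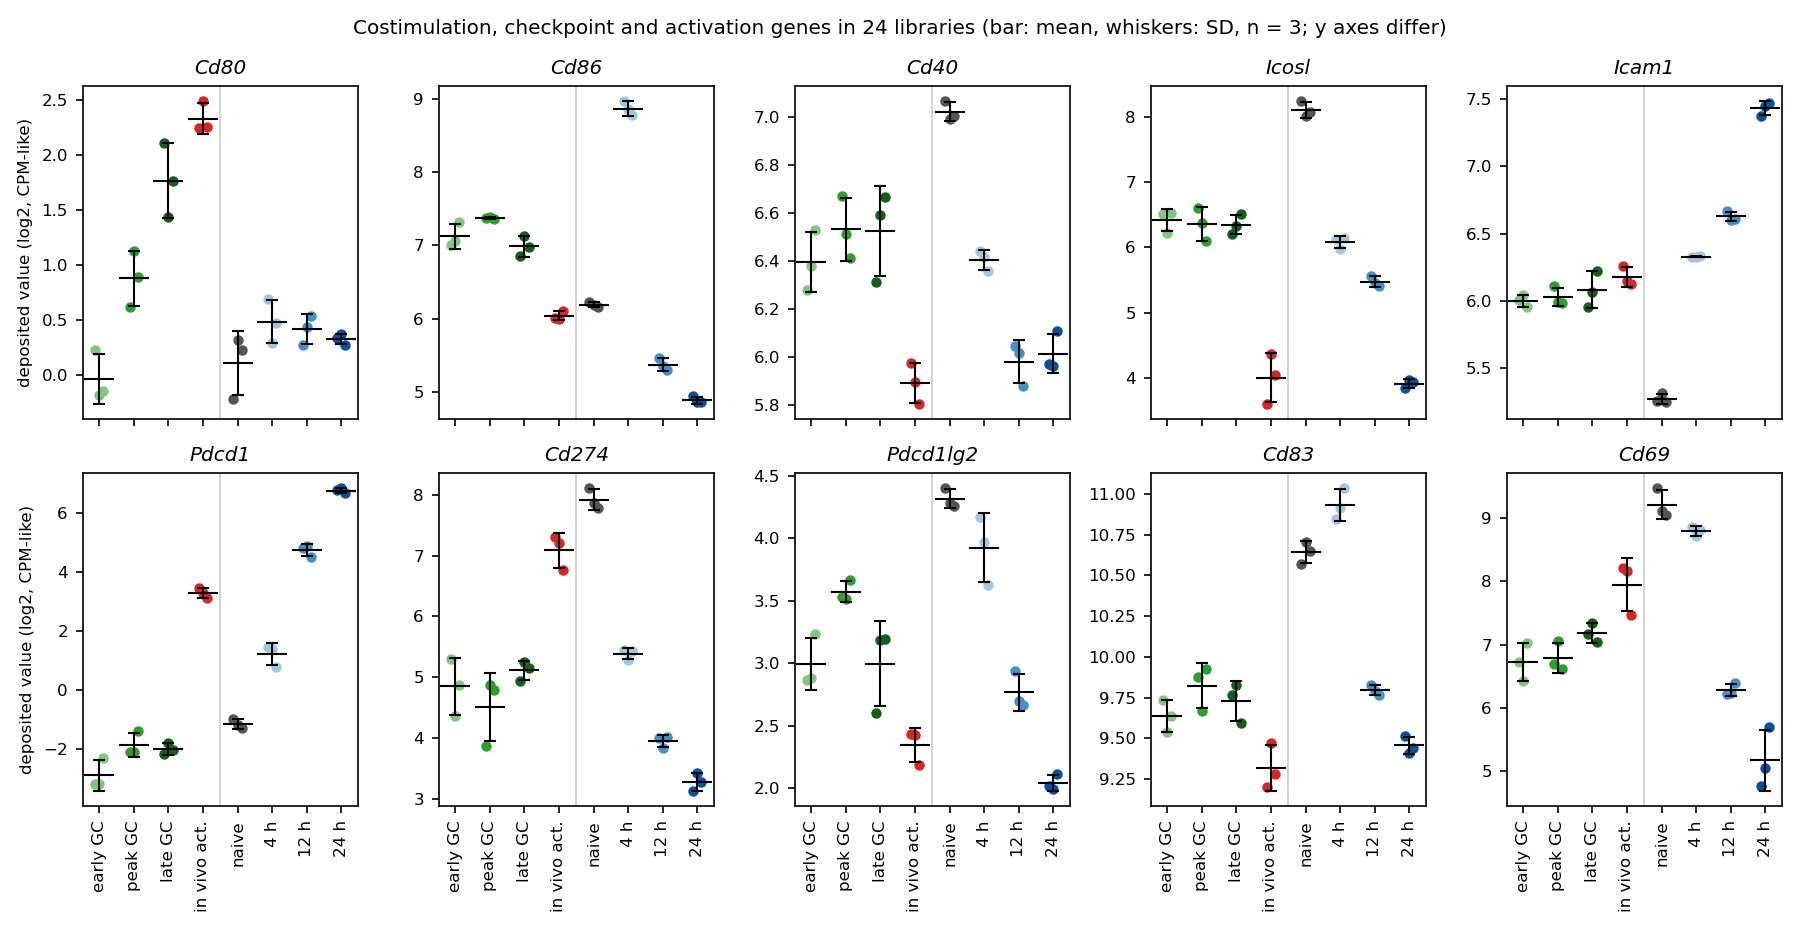
Deposited log2 value of each member in every library by group; points are libraries, the bar is the mean of 3 and whiskers are the SD, with a y axis of its own for each gene. Pdcd1 reaches 6.74 log2 at 24 h in vitro while Cd274 and Pdcd1lg2 are lowest there, and Cd80 is highest in in vivo activated cells.

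The costimulator Cd80 separated in vivo activated and late GC cells from the rest. Its log2 values were -0.18, -0.14 and 0.23 in early GC, 0.63, 0.90 and 1.13 in peak GC, and 1.44, 1.77 and 2.11 in late GC libraries. In vivo activated libraries had 2.25, 2.25 and 2.49, and naive libraries had -0.22, 0.23 and 0.32. The level of Cd80 was low throughout, with group means of -0.03 to 2.33 log2 (0.98 to 5.03 CPM-like units). The 3 GC stages did not overlap one another, the in vivo activated libraries lay above all others, and early GC libraries overlapped naive ones. These are bulk samples, in which fewer cells with a transcript and less of it per cell cannot be told apart. Against naive cells, Cd80 was higher by 2.22 ± 0.20 log2 (SE) in in vivo activated cells (adjusted p = 6.7e-10), by 1.66 in late GC (adjusted p = 8.7e-08) and by 0.77 in peak GC cells (adjusted p = 0.0014), while early GC cells differed by -0.14 log2 (95% interval -0.56 to 0.28). It rose by 0.91 log2 in peak over early GC cells (adjusted p = 0.0035) and by 0.89 in late over peak GC cells (adjusted p = 0.0020), and late GC cells differed from in vivo activated cells by -0.56 log2 (adjusted p = 0.016). With only the libraries of the groups compared in the fit, both steps lost their calls (adjusted p = 0.075 and 0.058), and late GC against in vivo activated cells lost its call without the second late GC library (adjusted p = 0.11) or the second in vivo activated library (adjusted p = 0.068).

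In culture Cd80 did not pass the test at any time. Its log2 values were 0.29, 0.48 and 0.69 at 4 h, 0.28, 0.44 and 0.54 at 12 h, and 0.28, 0.34 and 0.37 at 24 h, overlapping the naive libraries at every time. The differences from naive cells were 0.38 (95% interval -0.04 to 0.79), 0.31 (-0.11 to 0.73) and 0.22 log2 (-0.20 to 0.64). Cd80 is also made by macrophages, whose markers were highest in late GC libraries. Without the first late GC library, which had the highest marker sum and the highest Cd80 of the GC libraries, Cd80 in late GC cells was higher than in naive cells by 1.49 log2 (adjusted p = 1.4e-06), than in early GC cells by 1.63 (adjusted p = 6.9e-06) and than in peak GC cells by 0.72 (adjusted p = 0.017). The libraries kept, at sums of 720 and 507, lay above those of every other group. The in vivo activated libraries had the highest Cd80 and marker sums of at most 50.0, below all naive libraries, and early GC libraries, with sums of 194 to 323, had Cd80 at the naive level. The part of macrophage RNA in the Cd80 levels of late GC cells was not tested.

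**Figure D2:**
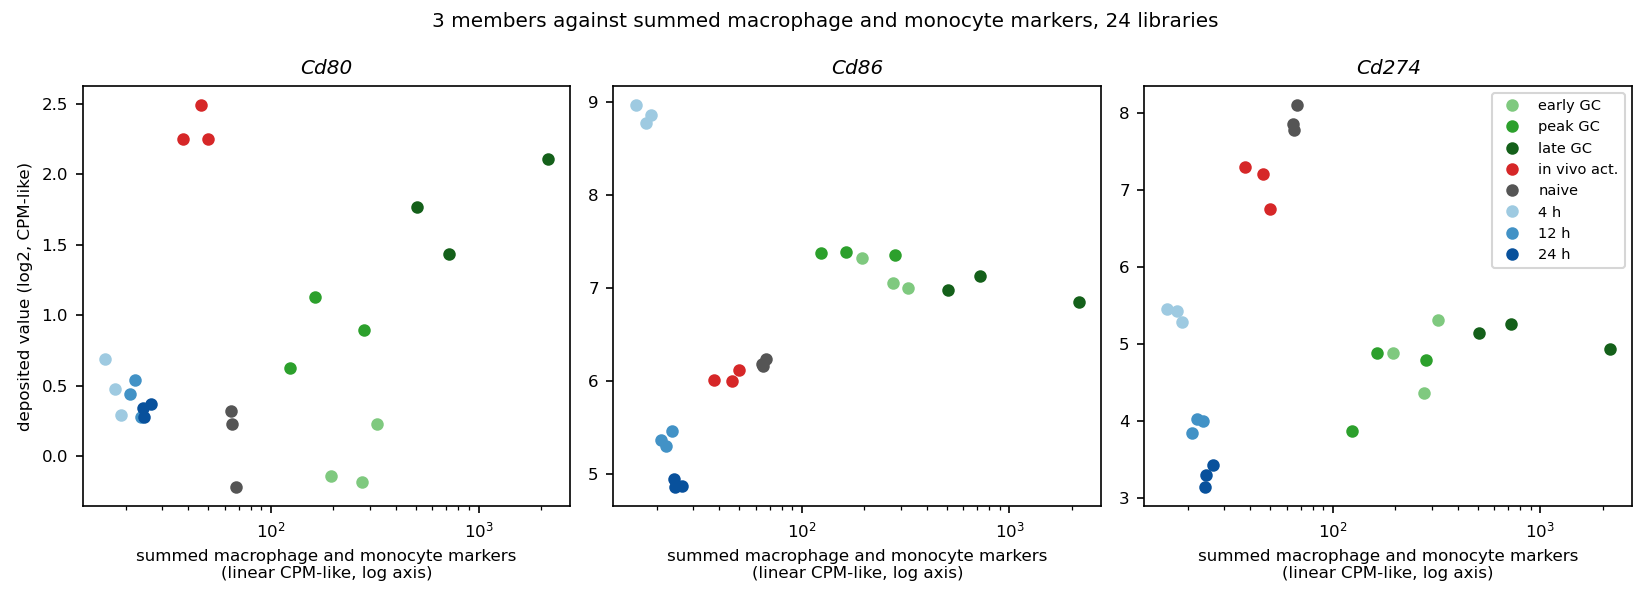
Deposited log2 value of Cd80, Cd86 and Cd274 in each of 24 libraries (y axes) against the sum of 13 macrophage and monocyte marker genes in the same library (linear CPM-like units, log axis); colors are the groups. The in vivo activated libraries have the highest Cd80 at sums of 37.7 to 50.0, and the late GC library at a sum of 2160 has the highest Cd80 of the GC libraries (2.11 log2) and the lowest Cd86 and Cd274 of the late GC libraries (6.85 and 4.94 log2).

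Cd86, the other B7 costimulator, followed another course. Its log2 values were 7.0, 7.05 and 7.32 in early GC, 7.36, 7.38 and 7.39 in peak GC and 6.85, 6.98 and 7.13 in late GC libraries. They were 6.0, 6.01 and 6.11 in in vivo activated and 6.16, 6.18 and 6.23 in naive libraries. All GC libraries lay above all in vivo activated and naive libraries. Relative to naive cells, Cd86 was higher by 0.93 ± 0.07 (SE) in early GC (adjusted p = 6.9e-11), by 1.18 in peak GC (adjusted p = 7.7e-13) and by 0.80 log2 in late GC cells (adjusted p = 1.1e-09). In vivo activated cells differed from naive cells by -0.15 log2 (95% interval -0.30 to 0.00; adjusted p = 0.071), a difference that passed when only those groups were fitted (adjusted p = 0.034). Among GC stages, Cd86 fell by 0.39 log2 in late against peak GC cells (adjusted p = 0.00046), and its rise of 0.25 in peak over early GC cells (adjusted p = 0.027) was lost without any one of 4 of the 6 libraries involved (adjusted p = 0.054 to 0.13) and with only those groups fitted (adjusted p = 0.15).

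In vitro, Cd86 was above its naive level at 4 h and below it later. After 6.16, 6.18 and 6.23 log2 in naive libraries, its values were 8.77, 8.85 and 8.97 at 4 h, 5.30, 5.36 and 5.46 at 12 h, and 4.86, 4.87 and 4.94 at 24 h. The 4 h libraries were the highest of all 24 and the 24 h libraries the lowest, with no overlap between any of these times. Cd86 was 6.37-fold higher at 4 h than in naive cells (2.67 ± 0.07 log2, SE, adjusted p = 3.6e-19), and lower than in naive cells by 0.82 log2 at 12 h (adjusted p = 5.7e-10) and by 1.30 log2 at 24 h (adjusted p = 7.5e-14). At 12 h it was 11.2-fold lower than at 4 h (-3.49 log2), which had the smallest adjusted p of the 11885 genes in that comparison (7.4e-20).

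Cd40 varied least among the members. Early GC libraries had 6.28, 6.38 and 6.53 log2, peak GC 6.41, 6.51 and 6.67, late GC 6.31, 6.59 and 6.67, and in vivo activated libraries 5.80, 5.90 and 5.97. Naive libraries had 6.99, 7.01 and 7.07 log2, above every other library. The GC stages overlapped one another and lay between naive and in vivo activated cells. Cd40 was lower than in naive cells by 0.49 to 0.63 log2 in the GC stages (adjusted p of at most 1.0e-05) and by 1.13 log2 in in vivo activated cells (adjusted p = 1.3e-11), and the GC stages were higher than in vivo activated cells by 0.50 to 0.64 log2. In culture its mean, 7.02 log2 in naive cells, was 6.40, 5.98 and 6.01 at 4 h, 12 h and 24 h, with differences from naive cells of -0.62, -1.04 and -1.01 log2, all called. The 12 h and 24 h libraries overlapped, and their difference was 0.03 log2 (95% interval -0.14 to 0.20).

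Icosl, whose protein binds ICOS on helper T cells, was the member most reduced in in vivo activated cells. In vivo activated libraries had 3.61, 4.05 and 4.37 log2, against 8.01, 8.06 and 8.24 in naive libraries, the highest of all. The level was 17.1-fold lower than in naive cells (-4.09 ± 0.14 log2, SE, adjusted p = 1.3e-16). GC libraries held a level between these, with overlapping stages, at 6.22 to 6.52 in early, 6.09 to 6.60 in peak and 6.21 to 6.51 in late GC cells. They were lower than naive cells by 1.69, 1.75 and 1.76 log2 (adjusted p of at most 4.9e-10), yet higher than in vivo activated cells by 2.41, 2.35 and 2.34 log2 (adjusted p of at most 3.9e-12). In culture, the mean Icosl level of 8.10 log2 in naive cells was followed by 6.09, 5.48 and 3.92 log2 at 4 h, 12 h and 24 h, and each step was called. The 24 h level did not differ beyond the spread from the in vivo activated one (higher in in vivo activated cells by 0.09 log2, adjusted p = 0.59).

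Icam1 was the 1 member higher than in naive cells in all 7 other groups. Early GC libraries had 5.95 to 6.04, peak GC 5.99 to 6.11, late GC 5.95 to 6.22 and in vivo activated libraries 6.12 to 6.26 log2. Naive libraries had 5.25, 5.25 and 5.31 log2 and were below all others. The differences from naive cells were 0.73, 0.76, 0.81 and 0.91 log2 in that order (adjusted p of at most 8.8e-11). In culture the libraries had 6.33, 6.33 and 6.33 at 4 h, 6.60, 6.61 and 6.67 at 12 h, and 7.37, 7.45 and 7.47 log2 at 24 h, without overlap between times. Icam1 was 4.48-fold higher at 24 h than in naive cells (2.16 ± 0.06 log2, SE, adjusted p = 7.2e-20). The GC stages and in vivo activated cells were close: the differences of -0.18, -0.15 and -0.10 log2 in early, peak and late GC cells gave adjusted p = 0.0095, 0.028 and 0.14, and the early and peak calls were lost without the first in vivo activated library (adjusted p = 0.063 and 0.14), the peak call also without the second or the third peak GC library (adjusted p = 0.089 and 0.085).

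Pdcd1, which encodes PD-1, had the widest range of the members. GC libraries were at -3.19, -3.17 and -2.29 in early, -2.10, -2.08 and -1.37 in peak and -2.17, -2.02 and -1.78 log2 in late GC cells. In vivo activated libraries had 3.12, 3.27 and 3.45 log2, and naive libraries were at -1.28, -1.19 and -0.96. The in vivo activated cells lay above all GC and naive libraries, and all GC libraries lay below all naive ones. Pdcd1 was 21.5-fold higher in in vivo activated than in naive cells (4.42 ± 0.24 log2, SE, adjusted p = 5.1e-14), while early, peak and late GC cells were lower than in vivo activated cells by 6.17, 5.13 and 5.27 log2 (adjusted p of at most 6.8e-15). The fold over naive cells rests on a naive mean of -1.14 log2, or 0.45 CPM-like units, and the GC means were lower still. The differences of -1.74, -0.71 and -0.85 log2 between early, peak and late GC and naive cells were called (adjusted p = 6.1e-07, 0.010 and 0.0026). These lie among values below 0 log2, under 1 CPM-like unit, and with a pseudocount of 1 the peak and late differences were -0.18 and -0.21 log2 and lost their calls (adjusted p = 0.16 and 0.093). The peak difference was also at adjusted p = 0.050 without the second peak GC library, where it missed the threshold, and both were lost with only the libraries of those groups in the fit (adjusted p = 0.11 and 0.058). The rises of 1.03 and 0.89 log2 in peak and late over early GC cells (adjusted p = 0.0050 and 0.0060) were lost with that pseudocount (adjusted p = 0.39 in both) and with only those groups fitted (adjusted p = 0.27 and 0.18).

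In culture Pdcd1 rose at every step. After -1.28, -1.19 and -0.96 log2 in naive libraries, its values were 0.78, 1.40 and 1.45 at 4 h, 4.49, 4.81 and 4.86 at 12 h, and 6.65, 6.75 and 6.82 log2 at 24 h. No library of one time overlapped another time, and the 24 h libraries were the highest of all 24. Relative to naive cells the level was 5.10-fold higher at 4 h (adjusted p = 4.7e-09), 58.3-fold at 12 h (adjusted p = 1.9e-16) and 236-fold at 24 h (adjusted p = 4.7e-19). These folds rest on a naive mean of -1.14 log2, or 0.45 CPM-like units, so their size depends on values under 1 unit. The in vivo activated level lay between those at 4 h and 12 h, apart from both.

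Both ligands of PD-1 were highest in naive cells. GC libraries had Cd274 at 4.37, 4.88 and 5.31 in early, 3.87, 4.79 and 4.88 in peak and 4.94, 5.15 and 5.25 log2 in late GC cells. It was at 6.76, 7.21 and 7.30 in in vivo activated and 7.79, 7.86 and 8.11 log2 in naive libraries. All GC libraries lay below all in vivo activated libraries, and these below all naive ones. Cd274 was 8.39-fold, 10.6-fold and 7.0-fold lower in early, peak and late GC than in naive cells (-3.07, -3.41 and -2.81 log2, adjusted p of at most 3.7e-10) and lower than in in vivo activated cells by 2.24, 2.57 and 1.98 log2. Its difference between in vivo activated and naive cells was -0.83 log2 (adjusted p = 0.0021). The rise of 0.60 log2 in late over peak GC cells (adjusted p = 0.046) rested on the first peak GC library, at 3.87 log2, without which it was 0.28 (adjusted p = 0.30). It also lost its call without the second or the third late GC library (adjusted p = 0.12 and 0.099) and with only those groups fitted (adjusted p = 0.17). In culture Cd274 had means of 7.92 in naive cells and 5.39, 3.95 and 3.29 log2 at 4 h, 12 h and 24 h, the last 24.8-fold lower than naive (-4.63 ± 0.22 log2, SE, adjusted p = 5.5e-14).

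Pdcd1lg2, the neighbour of Cd274, was also highest in naive cells but fell less. GC libraries had 2.86, 2.88 and 3.23 log2 in early, 3.52, 3.53 and 3.67 in peak and 2.6, 3.19 and 3.20 in late GC cells. In vivo activated libraries had 2.19, 2.42 and 2.43 log2, and naive libraries had 4.26, 4.29 and 4.4 log2. The in vivo activated libraries lay below all GC libraries, the reverse of Cd274, and the peak GC libraries lay above those of the other GC stages. Pdcd1lg2 was lower than in naive cells by 1.32, 0.74, 1.32 and 1.97 log2 in early, peak and late GC and in vivo activated cells (adjusted p of at most 8.6e-05), and GC cells were higher than in vivo activated cells by 0.65, 1.23 and 0.65 log2. It was higher in peak than in early GC cells by 0.58 log2 (adjusted p = 0.011; 0.054 without the second early GC library) and fell by 0.58 log2 in late against peak GC cells (adjusted p = 0.0052; 0.073 with only those groups fitted), the difference being -0.38 without the first late GC library (adjusted p = 0.046). In culture the means were 4.32 in naive cells and 3.93, 2.77 and 2.05 log2 at 4 h, 12 h and 24 h. The first fall, of 0.39 log2 (adjusted p = 0.020), was lost without the third 4 h library (-0.24 log2, adjusted p = 0.16) or the first naive library (-0.35 log2, adjusted p = 0.067), and the 24 h level was 4.83-fold below that of naive cells (adjusted p = 9.7e-13).

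**Figure D3:**
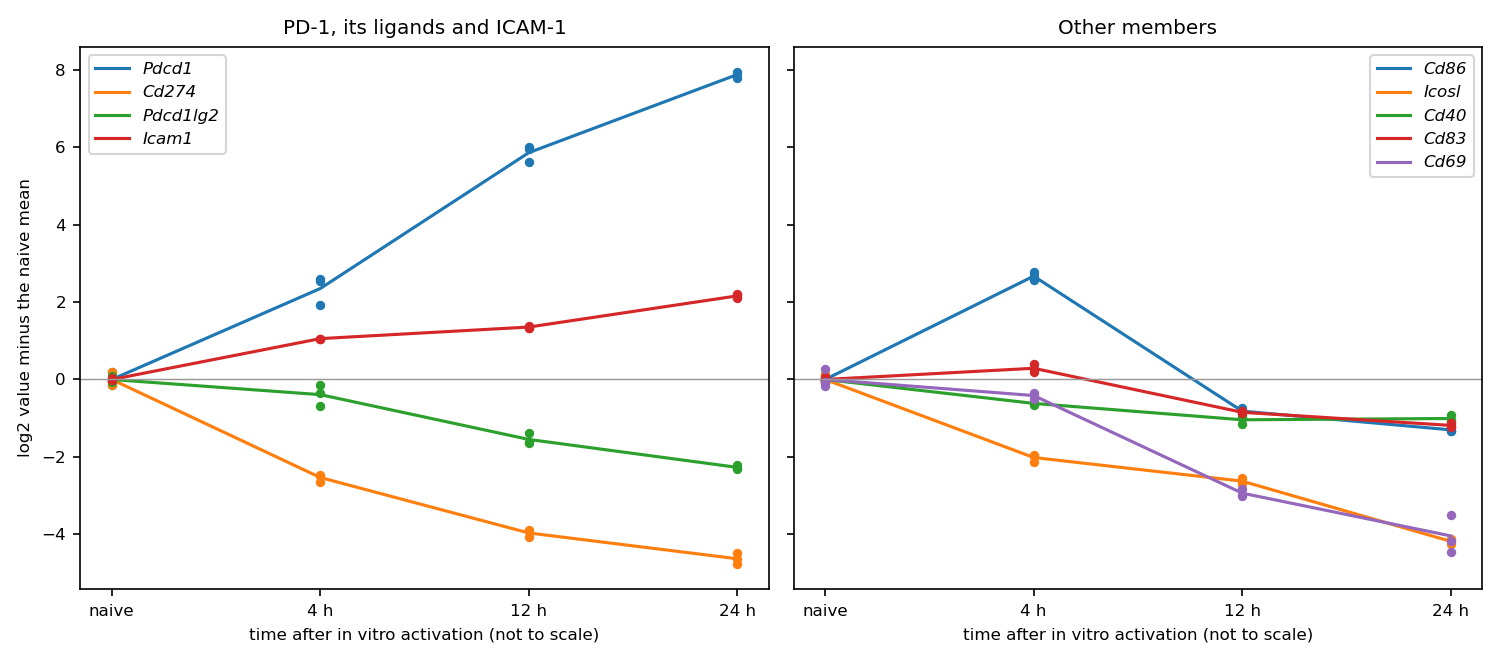
Log2 value minus the mean of the naive libraries for 9 members in naive cells and 4 h, 12 h and 24 h in vitro (x axis, not to scale); points are libraries and lines join group means. Pdcd1 and Icam1 rise to 7.88 and 2.16 above naive at 24 h, Cd86 is 2.67 above naive at 4 h and 1.30 below it at 24 h, and Cd274 and Icosl fall by 4.63 and 4.18.

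The activation markers Cd83 and Cd69 were both high in naive libraries. Cd83 had 9.54 to 9.74 log2 in early GC, 9.67 to 9.93 in peak GC, 9.59 to 9.83 in late GC, 9.20 to 9.47 in in vivo activated and 10.57, 10.65 and 10.71 log2 in naive libraries. All GC libraries lay above all in vivo activated ones and below all naive ones. The differences from naive cells were -1.0, -0.82, -0.91 and -1.32 log2 in early, peak and late GC and in vivo activated cells, all called. GC stages were higher than in vivo activated cells by 0.32, 0.51 and 0.41 log2 (adjusted p of at most 0.00064). In culture Cd83 rose by 0.29 log2 at 4 h over naive cells (adjusted p = 0.0013), with 4 h libraries at 10.85, 10.92 and 11.04, and was 0.85 and 1.19 log2 lower than in naive cells at 12 h and 24 h.

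Cd69 had 6.42, 6.73 and 7.03 log2 in early GC, 6.62, 6.69 and 7.05 in peak GC and 7.04, 7.16 and 7.35 in late GC libraries. In vivo activated libraries had 7.47, 8.17 and 8.21 and naive libraries 9.05, 9.12 and 9.48 log2. Thus naive libraries lay above in vivo activated ones and these above all GC libraries. Cd69 was lower than in naive cells by 2.49, 2.43, 2.03 and 1.26 log2 in early, peak and late GC and in vivo activated cells, and lower in the GC stages than in in vivo activated cells by 1.23, 1.16 and 0.77 log2, all called. At 4 h the difference from naive cells of -0.41 log2 (95% interval -0.87 to 0.04) did not pass the test (adjusted p = 0.088), although the libraries did not overlap and the difference passed when only these groups were fitted (adjusted p = 0.0016). At 12 h and 24 h Cd69 was 7.66-fold and 16.5-fold lower than in naive cells (adjusted p = 1.9e-10 and 8.9e-13).

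Cd69 is often used to mark recent activation, so the 24 immediate-early genes, which are switched on within minutes of stimulation or handling, are given beside it. Their summed linear values were 4259 to 6624 in GC and 6618 to 8515 in in vivo activated libraries, and 5031 to 5169, 2760 to 2836 and 2207 to 2510 at 4 h, 12 h and 24 h in vitro, all below the 14752 to 18013 of naive libraries. Against naive cells 21 of 24 were lower in peak GC cells and 1 was higher (Ier3), where 39.3% and 40.5% of all genes were, with a median of -2.16 log2 beside 0.01 over all genes tested, and at 24 h in vitro 20 were lower and 1 was higher (Egr2; 42.5% and 42.2% of all genes). The transcription factor Jund fell by 2.6 log2 at 24 h and Klf4 by 5.76 log2. Of the same list, 13 genes were higher and 1 lower in late than in peak GC cells (12% and 20.6% of all genes). The part of this pattern in the high naive levels of Cd69 and the other members was not tested.

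Read against all genes, the number of members changed against naive cells was near the background in most groups, since most genes changed. In early GC cells 9 of 10 members changed, where 79.7% of genes tested did, and in peak and late GC cells all 10 did, against 79.7% and 81.6%. In each GC stage 7 members were lower, against backgrounds of 40.2%, 39.3% and 43.1% lower, and 2, 3 and 3 were higher, against 39.5%, 40.5% and 38.5%. In in vivo activated cells 9 members changed (background 79.3%), 3 of them higher (39.2%) and 6 lower (40.1%). At 4 h, 12 h and 24 h in vitro 8, 9 and 9 members changed (78%, 80.9% and 84.8%), with 4, 2 and 2 higher (38.9%, 41.7% and 42.2%) and 4, 7 and 7 lower (39.1%, 39.2% and 42.5%). These comparisons share the naive libraries. The median difference of the members from naive cells was -1.16, -0.73 and -0.88 log2 in early, peak and late GC cells and -0.98 in in vivo activated cells. At 4 h, 12 h and 24 h in vitro it was -0.05, -0.94 and -1.24 log2. Over all genes these medians lay between -0.07 and 0.03 log2. As deposited, the library medians over tested genes differed by at most 0.019 log2. All-gene median differences near 0, here and beside the gene lists, thus largely follow from the scaling and are no independent background.

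**Figure D4:**
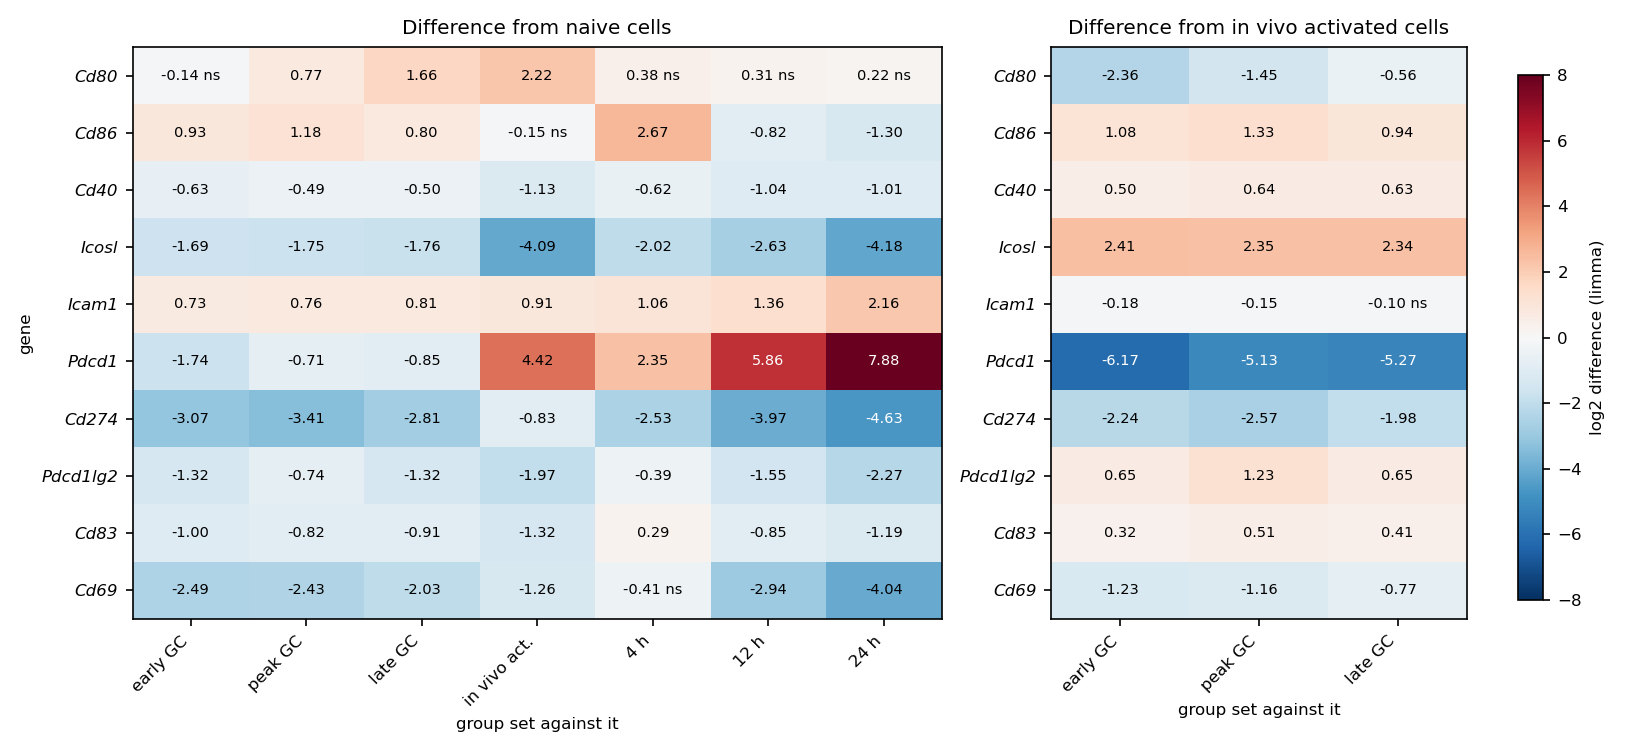
Log2 difference (color and printed number) of each member in GC, in vivo activated and in vitro activated cells from naive cells (left) and in GC cells from in vivo activated cells (right); ns marks differences with an adjusted p of 0.05 or more. Icam1 is higher than in naive cells in all 7 groups, Icosl, Cd274, Pdcd1lg2 and Cd40 are lower in all 7, and Pdcd1 has the largest differences in both panels.

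Between GC and in vivo activated cells the members divided evenly. Early and peak GC cells had all 10 members changed, where 69.5% and 69.2% of genes tested were, and late GC cells had 9 (73.3%). In each stage 5 were higher, Cd40, Cd86, Icosl, Pdcd1lg2 and Cd83 (background 33.2%, 34.1% and 30.5% higher). Cd80, Pdcd1, Cd274 and Cd69 were lower in each stage, and Icam1 was lower in early and peak GC cells (36.4%, 35% and 42.7% lower). The median size of the members' differences was 1.15, 1.28 and 0.71 log2 in early, peak and late GC against in vivo activated cells, beside 0.43, 0.43 and 0.48 log2 over all genes.

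At most 4 of the 10 members were called in any comparison between GC stages. The median size of the members' differences was 0.22 log2 in peak against early GC cells, beside 0.12 over all genes. In late against peak and late against early GC cells it was 0.26 and 0.13 log2, beside 0.18 and 0.19. In peak against early GC cells 4 members were higher (Cd80, Cd86, Pdcd1 and Pdcd1lg2; background 5.77% higher) and 0 were lower by limma (7.42%; also 0 at an unadjusted p under 0.05), with 13.2% of genes changed in all. In late against peak GC cells Cd80 and Cd274 were higher (12%) and Cd86 and Pdcd1lg2 lower (20.6%), with 32.6% of genes changed. In late against early GC cells Cd80 and Pdcd1 were higher (13%) and 0 were lower by limma (22.1%; also 0 at an unadjusted p under 0.05), with 35.1% of genes changed. Cd40, Icosl, Icam1, Cd83 and Cd69 passed no test between GC stages, and their differences lay between -0.09 and 0.46 log2, the highest for Cd69 in late over early GC cells (adjusted p = 0.11).

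In culture the steps between times were larger. At 12 h against 4 h, 9 members changed (61.9%), with Pdcd1 and Icam1 higher (34.6%) and the 7 others lower (27.2%), all but Cd80. At 24 h against 12 h, 8 changed (57.3%), with the same pair higher (22.5%) and 6 lower (34.8%); Cd40 and Cd80 did not pass. Pdcd1 rose by 3.51 and 2.02 log2 in these steps and Icam1 by 0.30 and 0.81, while Cd69 fell by 2.52 and 1.11, Icosl by 0.61 and 1.56 and Cd83 by 1.14 and 0.34 log2.

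The receptors that the members' proteins bind were looked at in the same libraries, since several are made by T cells. Of 8 such genes 7 were tested, of which 2 were higher and 2 lower in peak GC, 2 higher and 3 lower in in vivo activated and 1 higher and 5 lower in 24 h cells than in naive cells. Over all genes 40.5% were higher and 39.3% lower in peak GC, 39.2% and 40.1% in in vivo activated and 42.2% and 42.5% in 24 h cells. The remaining gene, Cd40lg, the T-cell ligand of CD40, had group means of at most -1.63 log2. Ctla4, an inhibitory receptor of CD80 and CD86, had means of 4.38, 4.64 and 3.96 log2 in early, peak and late GC 4.49 in in vivo activated cells and 0.93 at 24 h in vitro, against 0.33 in naive cells. It was higher than in naive cells by 4.31 log2 in peak GC (adjusted p = 1.3e-14) and by 4.16 in in vivo activated cells (adjusted p = 3.0e-14). Its partner receptor Cd28 had means of 0.84 in peak GC and -2.22 in in vivo activated cells, against 1.08 in naive cells, and Icos, the receptor of ICOSL, had 0.59 log2 in peak GC and -4.36 in in vivo activated cells, against 0.28 in naive cells. The T-cell marker Cd3e was at 0.24 log2 in peak GC and -1.55 in in vivo activated cells, against 0.47 in naive cells, with Cd28 and Icos below the naive level there too. Of 11 T-cell markers, Cd28 among them, 8 were tested, of which 3 were higher and 3 lower in in vivo activated than in naive cells (39.2% and 40.1% of all genes). In late GC cells 5 were higher and 1 lower than in naive cells (38.5% and 43.1% of all genes), with a median of 1.27 log2. The summed linear values of the 11 markers were 223 to 237 in in vivo activated, 133 to 256 in GC and 169 to 209 in in vitro activated libraries, against 53.5 to 61.2 in naive libraries. The in vivo activated sum was mostly Lck, at a mean of 7.69 log2 against 5.38 in naive cells (named after its values were seen). The part of T-cell RNA in the Ctla4 level was not tested. Itgal, the LFA-1 chain that binds ICAM-1, was lower than in naive cells by 1.20 log2 in peak GC cells and higher by 0.22 in in vivo activated cells.

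Genes of CD40 and NF-kB signalling were mostly below their naive level in vivo. Of 20 tested, 16 were lower and 0 higher in peak GC cells by limma (0 were higher at an unadjusted p under 0.05), where 39.3% of all genes were lower and 40.5% higher. In in vivo activated cells 18 were lower and 1 higher (40.1% and 39.2% of all genes), with medians of -0.73 and -0.81 log2. Birc3, an inhibitor of cell death induced by NF-kB, fell by 2.02 log2 in peak GC and by 2.98 in in vivo activated cells, and Nfkb2, which encodes the p100 subunit, by 1.71 and 2.41. At 4 h in vitro 7 were higher and 10 lower (38.9% and 39.1% of all genes), led by Nfkb1 (1.66 log2 higher) and the inhibitor Nfkbie (1.46 log2 higher). At 24 h 3 were higher and 16 lower (42.2% and 42.5%), with Nfkbie 1.91 and Nfkb1 1.0 log2 above naive. In peak GC against in vivo activated cells 13 were higher and 4 lower (34.1% and 35%), with a median of 0.52 log2 beside -0.01 over all genes.

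Other costimulatory, checkpoint and adhesion proteins changed in both directions (22 tested). In peak GC cells 6 were higher and 13 lower than in naive cells (40.5% and 39.3% of all genes), where Lgals9, a galectin that binds TIM-3, fell by 3.62 log2 and Tnfsf9, the ligand of 4-1BB, rose by 3.5. In in vivo activated cells 12 were higher and 6 lower (39.2% and 40.1%), led by the adhesion receptor Cd44 (1.8 log2 higher). At 24 h in vitro 7 were higher and 10 lower (42.2% and 42.5%), and Il2ra, the alpha chain of the IL-2 receptor, had 7.52 log2 at 24 h against 1.99 in naive cells. Their medians were -0.38, 0.20 and -0.17 log2. In peak GC against in vivo activated cells 4 were higher and 15 lower (34.1% and 35%), and Slamf1, a homophilic receptor at the T-cell contact, was 2.72 log2 higher. Among 15 intracellular and membrane partners of the members, 2 were higher and 10 lower in peak GC, 5 higher and 9 lower in in vivo activated and 6 higher and 9 lower in 24 h cells than in naive cells, beside the same shares of all genes. Of these, March1, the ligase that removes CD86 and MHC class II from the surface and that CD83 opposes, was 1.62 log2 higher in peak GC than in in vivo activated cells, and Irf1, an interferon-induced activator of Cd274, was lower than in naive cells by 1.95 log2 in peak GC, by 2.08 in in vivo activated and by 2.79 at 24 h.

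Members resembled one another to different degrees over the 8 group means, given as a description without a test, since the points are group means on 1 shared scale. Pearson's r was 0.93 between Cd40 and Icosl, 0.89 between Icosl and Pdcd1lg2, 0.88 between Pdcd1lg2 and Cd83 and 0.87 between Cd274 and Cd69, and -0.81 between Icosl and Icam1 and -0.78 between Icosl and Pdcd1. Over 9284 genes compared, the pattern most like Cd40 was that of Nfe2l2 (r = 0.99), most like Icosl Kdm2a (0.99), most like Pdcd1 Ankrd46 (0.99), most like Icam1 Pold2 (0.98), most like Cd83 Ppm1a (0.98), most like Cd69 Tank (0.98), most like Pdcd1lg2 Zfp644 (0.97) and most like Cd274 Plbd1 (0.97). The nearest gene to Cd86 was Papd7 (0.92) and the nearest to Cd80 was Mgst1 (0.86). The gene after Mgst1 in likeness to Cd80 was the macrophage marker Cd68 (0.85), which had 4.33 log2 in in vivo activated cells against 2.68 in naive cells. There, the other markers Csf1r, Lyz2 and Cd14 had 1.42, 2.66 and -1.67 log2, against 2.72, 4.28 and 0.61 in naive cells.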

How the data were processed

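Per the labels' protocols, sorted cells gave RNA (RNeasy Plus Micro), stranded mRNA libraries (TruSeq) and paired NextSeq reads of 75 bases. The build was mm10 and the tools were STAR 2.6.0c, cutadapt 1.8.3, FastQC 0.11.5, Subread 1.6.2, featureCounts and limma, per the submitters' processing notes. Their options are not given in the sources used here. The authors deposited 1 table of log2 values per library. Their linear sums lay between 990678 and 1008194, as CPM would give, and depth is unknown, so no detection limit could be computed. The values show steps that no label records: the value at rank 1000 differed by at most 0.03 log2 between libraries, and the mean over the libraries of each replicate number agreed for every gene within 0.0009 log2. A replicate-number effect had thus been removed, which the residual degrees of freedom do not count (16; 14 with the replicate block). No 2 libraries were identical: at least 14914 genes differed between any pair.

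All 24 libraries were fitted with 1 mean per group in limma 3.58.1 (R 4.3.3), with trend and robust moderation, over 11885 genes with a log2 value of at least 0 in at least 3 libraries. A gene was called at a two-sided Benjamini-Hochberg adjusted p under 0.05 over all genes tested in that comparison. There were 15 comparisons, and neighbours in a member's order of levels were tested in the same fit. Summaries and figures used pandas 2.3.3, numpy 2.4.6 and matplotlib 3.10.9 in Python 3.11.15. The members, gene lists and tests were chosen with earlier results of these data known. Named are all members, the 3 genes with the highest Pearson's r over group means per member (of which the nearest are printed), and up to 2 genes per list and direction by smallest adjusted p; Cd3e, Cd79a, S1pr2, Ddx3y, Csf1r, Lyz2 and Cd14 are given as markers. The marker lists summed were pan B cells, T cells, macrophages and monocytes, neutrophils, erythroid cells, NK cells, platelets, dendritic cells, plasma cells and stroma. Alternatives were a fit of the pair alone, a replicate block, no filter, a filter at 3 log2, a pseudocount of 1, no moderation options, median centring and leaving out each library.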

Additional observations from a re-analysis of the deposited data

How the results depend on the processing

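Of 150 member differences (120 called), 118 kept their call and sign under every alternative tried, and 1870 of 1935 alternative values did; the cause of the other changes was not tested. The labels do not say that replicate numbers mark a batch. Because the means of the replicate numbers had been made equal before deposit, deviations of same-numbered libraries sum to about 0, so their correlation (r of -0.37 to 0.11, with 0 of 24 libraries closest to one of their own number) says nothing about a batch. For the same reason a replicate block only takes degrees of freedom (14 left of 16) and is no test of robustness to a batch. With it 1 member call was lost, Cd274 in late against peak GC cells (0.60 log2, adjusted p = 0.070). Median centring changed no member call, but it is no test of the scaling, since library medians over tested genes already lay within 0.019 log2. Its 150 values are among the 1935 alternative values counted above. Counts between GC stages depended on the other groups in the fit: with the pair alone, members and genes changed were 1 and 610 (peak against early), 1 and 1207 (late against peak) and 1 and 2381 (late against early), against 4 and 1568, 4 and 3877, and 2 and 4169. With genes of at least 3 log2, 2 members changed in late against peak and 1 in late against early GC cells, of 9 tested, and with a pseudocount of 1, 1 changed in late against early GC cells. The member not tested at 3 log2 was Cd80, whose highest library had 2.49 log2, so its absence from those counts is no lost call. Cd274 in late against peak GC cells lost its call under that filter (adjusted p = 0.052). Leaving out 1 library gave 2 to 4 members and 1034 to 1549 genes in peak against early GC cells, the lowest without the second early GC library. Differences that changed sign when 1 library was left out were uncalled throughout. In late against early GC cells these were Pdcd1lg2 (-0.10 to 0.20) and Icosl (-0.164 to 0.0022), in peak against early Cd69 (-0.089 to 0.21), Icam1 (-0.011 to 0.051) and Icosl (-0.18 to 0.072), in late against peak Cd40 (-0.0798 to 0.098), Icosl (-0.14 to 0.12), Pdcd1 (-0.27 to 0.10) and Icam1 (-0.018 to 0.12), in 12 h against 4 h Cd80 (-0.17 to 0.034) and in 24 h against 12 h Cd40 (-0.018 to 0.066). Calls gained without 1 library were Cd83 in peak against early GC (0.26, adjusted p = 0.028, without the second peak GC library), Cd40 and Cd86 in late against early GC (0.23 and -0.21, adjusted p = 0.029 and 0.044) and Icam1 in late GC against in vivo activated cells (-0.17, adjusted p = 0.013), and Cd274 at 24 h against 12 h lost its call without the first 24 h library (-0.59, adjusted p = 0.059).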
